A study of Mus musculus with 6 samples.

Results

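The 10 genes described here make up the core of TGF-beta signalling in Tregs, the regulatory CD4 T cells that need the transcription factor Foxp3 to suppress other immune cells. They were taken by gene symbol from a table of 55840 mouse genes, and all 10 were present and passed the filter on low counts. The set holds Lrrc32, which encodes GARP, the surface protein that holds latent TGF-beta on Tregs, and the ligand gene Tgfb1. It also holds the receptor genes Tgfbr1, Tgfbr2 and Tgfbr3, the signal-carrying Smad2, Smad3 and Smad4, and the inhibitor genes Smad7 and Ski. The RNA came from Tregs of mouse spleen and lymph nodes, in 3 libraries labelled WT and 3 labelled Exon2KO. The series title marks the second genotype as Foxp3∆2, that is Foxp3 without exon 2, which in humans is also skipped in a natural splice form. Age, sex, strain, the way the cells were sorted and the number of animals per library are not given in the sources used here. The titles call the libraries biological replicates, and the column names number them 2, 6 and 20 in each genotype.

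TGF-beta is secreted as a latent complex that stays inactive until integrins or other proteins release the ligand. On Tregs, GARP anchors this complex to the cell surface, and the integrin with the beta 8 chain can free the ligand from it. Active ligand binds the type II receptor Tgfbr2, which then phosphorylates the type I receptor Tgfbr1, while Tgfbr3 (betaglycan) is a co-receptor that presents ligand. Tgfbr1 phosphorylates Smad2 and Smad3, which join Smad4 and enter the nucleus. Smad7 blocks the type I receptor and is itself induced by the pathway, and Ski represses Smad target genes in the nucleus. In T cells the pathway is known for restraining effector differentiation and for inducing Foxp3 and the integrin gene Itgae.

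The 6 libraries held 17998216 to 21003496 counts each, and each of the 10 genes had at least 278 counts in every library. The libraries numbered 20 stood apart from the others on the first principal component (33.2% of the variance), with scores of 36.9 and 33.5 against -33.7 to 0.71 in the other 4. Foxp3 was detected at 712 ± 96.5 CPM (counts scaled to a common library size; SD, n = 3) in WT and 812 ± 121 CPM (SD, n = 3) in Exon2KO. Counts per gene cannot show whether exon 2 was missing, so they do not check the genotype labels. The Treg markers Cd3e, Cd4 and Il2ra were abundant, at WT means of 384, 666 and 643 CPM. Of the 7 tested Treg markers, Il2ra, Ctla4 and Ikzf2 fell in Exon2KO, by 0.52, 0.85 and 0.66 on the log2 scale (edgeR adjusted p = 0.0429, 0.00677 and 0.024), and Tnfrsf18 was lower with the block described next. Platelets also carry GARP and TGF-beta. Their markers summed to 7.11 to 8.65 CPM in WT and 8.89 to 10.8 CPM in Exon2KO over 10 genes, of which Gp1bb, Treml1 and Gp6 had 0 counts in every library and Pf4 had 0 in all but Exon2KO 6, with 3 counts. The 8 B cell markers summed to 34.1 to 34.9 CPM in WT and 27.6 to 29.3 CPM in Exon2KO. The 10 myeloid markers summed to 22.9 to 72.5 and 18.9 to 54.1 CPM. Lyz2, S100a8 and S100a9, the most abundant of them, were highest in the library numbered 20 of each genotype. S100a9 had 21.8 CPM in WT 20 and 15.6 CPM in Exon2KO 20, against 2.10 to 3.44 CPM in the other libraries. Scarcer markers such as Adgre1 and Xcr1 were not highest there. Sums were 14.2 to 18.4 and 11.6 to 15.6 CPM for 6 CD8 T and NK cell markers, 5.87 to 17.6 and 3.49 to 14.2 CPM for 7 erythroid markers, and 1.93 to 4.50 and 0.611 to 2.31 CPM for 9 stromal and endothelial markers, of which Col3a1, Dcn and Emcn had 0 counts in every library. No gene of these 6 lists was called by edgeR between the genotypes, although 3 had an unadjusted p under 0.05 and DESeq2 called 1, Cd79b, lower in Exon2KO. With the block, Cd79b and Lyz2 were called lower. The part of these cells in the results was not tested.

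The genotypes were compared to ask how these transcripts differ when the exon is missing. Tgfbr2, Tgfbr3 and Smad7 rose in Exon2KO Tregs, by 1.39-fold, 2.26-fold and 1.36-fold. The threshold for a call was an adjusted p under 0.05 in edgeR's quasi-likelihood test, with Benjamini-Hochberg adjustment over all 14919 tested genes. No member was called lower; Lrrc32 and Tgfbr1 were the 2 lower members with an unadjusted p under 0.05, and DESeq2 called both. The 3 of 10 members called stand against 2.33% of all tested genes called, 0.757% higher and 1.58% lower. Libraries with the same column number deviated from their group means together, so the number was also fitted as a block that compares Exon2KO with WT within each number. With the block 7 of the 10 were called: Tgfbr2, Tgfbr3, Smad7 and Ski higher, and Lrrc32, Tgfb1 and Tgfbr1 lower. The block called 9.72% of all tested genes, 3.93% higher and 5.79% lower. Without WT 2, or without Exon2KO 2, edgeR called 1 member, Tgfbr3. Over all tested genes these fits called 131 of 15398 and 86 of 15448, against 348 of 14919 with all libraries. The CPM of the groups did not overlap for 8 of the 10 members, against 17.7% of all tested genes. The median log2 fold change was 0.13 over the members and 0.0084 over all tested genes. In bulk RNA of this kind, fewer cells of one type and less RNA per cell cannot be told apart.

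**Figure D1:**
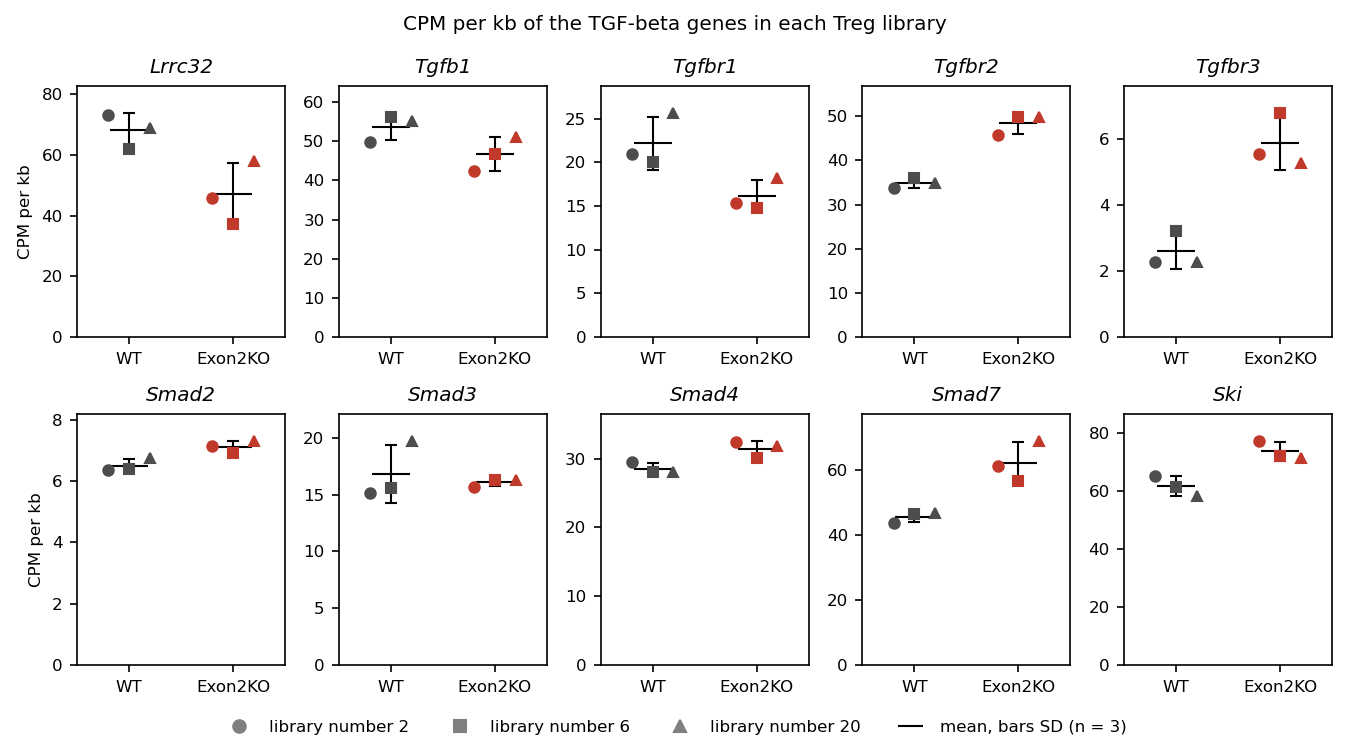
CPM per kilobase of gene length (vertical axes) of each of the 10 genes in the 3 WT (grey) and 3 Exon2KO (red) libraries; the marker shape gives the column number, the horizontal line the mean and the bars the SD, and each vertical axis starts at 0. Tgfbr3 lies between 2.28 and 3.21 CPM per kilobase in WT and between 5.27 and 6.78 in Exon2KO, while Smad3 overlaps between the groups.

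Lrrc32 (ENSMUSG00000090958, chromosome 7, 98489283 to 98502181, plus strand, build mm10) was the most abundant member in WT Tregs per length. It stood at 343, 290 and 324 CPM in WT 2, 6 and 20, and at 215, 175 and 272 CPM in Exon2KO 2, 6 and 20. Every Exon2KO library lay below every WT library, and Exon2KO 20 was the closest to WT. The log2 fold change was -0.53, with an SE of 0.15 (edgeR adjusted p = 0.162), short of the threshold. With the block it was -0.55 (SE 0.09, edgeR adjusted p = 0.00257), which passed. Within the pairs of one number the log2 difference was -0.67 for number 2, -0.73 for number 6 and -0.25 for number 20, so the libraries numbered 20 differed least. Without Exon2KO 20 the value was -0.71 (edgeR adjusted p = 0.0135), and without both libraries numbered 20 it was -0.70 (edgeR adjusted p = 0.0183).

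Tgfb1, the ligand gene (ENSMUSG00000002603, chromosome 7, 25687002 to 25705077, plus strand), had 251, 284 and 278 CPM in WT 2, 6 and 20. It had 214, 236 and 258 CPM in Exon2KO 2, 6 and 20, and Exon2KO 20 reached above WT 2. The groups thus overlapped, although Exon2KO was lower within every number, by log2 differences of -0.23, -0.26 and -0.11. The log2 fold change was -0.20 (SE 0.09, edgeR adjusted p = 0.419). With the block the same size had an SE of 0.06 and an edgeR adjusted p of 0.0482, just under the threshold.

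Among the receptor genes, those of the type II chain and the co-receptor rose, while that of the type I chain was lower but short of the threshold without the block. Tgfbr1 (ENSMUSG00000007613, chromosome 4, 47353222 to 47414931, plus strand) had 137, 131 and 168 CPM in WT 2, 6 and 20 and 100.5, 96.7 and 119 CPM in Exon2KO 2, 6 and 20. All Exon2KO libraries were below all WT libraries, and the library numbered 20 was the highest of each genotype. The log2 fold change was -0.46 (SE 0.11, edgeR adjusted p = 0.0854); with the block it was -0.46 (SE 0.06, edgeR adjusted p = 8.77e-05). Within numbers 2, 6 and 20 the log2 differences were -0.44, -0.43 and -0.50. Without Exon2KO 20 it was -0.56 (edgeR adjusted p = 0.0407), and without both libraries numbered 20 it was -0.44 (edgeR adjusted p = 0.0313).

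Tgfbr2 (ENSMUSG00000032440, chromosome 9, 116084293 to 116175360, minus strand) had 277, 295 and 285 CPM in WT 2, 6 and 20. It had 374, 407.5 and 407 CPM in Exon2KO 2, 6 and 20, all above the highest WT library. The gene rose by 0.47 in log2 terms (SE 0.07, edgeR adjusted p = 0.0125), a 1.39-fold level. The differences within numbers 2, 6 and 20 were 0.43, 0.47 and 0.51. The size changed little when a library was left out, but the call was lost without WT 2 (0.44, edgeR adjusted p = 0.0699), without Exon2KO 2 (0.51, edgeR adjusted p = 0.0589) and without Exon2KO 6 (0.44, edgeR adjusted p = 0.0513).

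Tgfbr3 (ENSMUSG00000029287, chromosome 5, 107106570 to 107289629, minus strand) was the least abundant member and the one with the largest fold change of the 10. Its counts were 278, 381 and 319 in WT 2, 6 and 20, while the Exon2KO libraries of these numbers held 651, 865 and 613. These correspond to 14.9, 21.0 and 15.0 CPM against 36.2, 44.4 and 34.5 CPM, with a wide gap between the groups and number 6 highest in both. The gene rose by 1.18 in log2 terms (SE 0.16, edgeR adjusted p = 0.00654), or 2.26-fold. The differences within numbers 2, 6 and 20 were 1.28, 1.08 and 1.20. Its call held in all 15 alternative fits. Tgfbr3 is overlapped by 4 gene models, Gm42900, Gm43422, Gm8145 and Gm43423, whose counts summed over the 6 libraries were 21, 19, 12 and 2, beside 3107 for Tgfbr3.

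The start regions of both main receptor chains are shown because these genes lay on opposite sides of no change; they are RefSeq sequences of build GRCm38.p6, 250 bases up to the base before the annotated start, 5′ to 3′ on the gene's strand. Windows were given for 5 of the 10 members. Capitals mark CAGAC or its reverse complement GTCTG, the short letters to which Smad proteins can bind, and would also mark the forkhead letters GTAAACA or TGTTTAC.
Tgfbr1, chr4:47352972-47353221, plus strand: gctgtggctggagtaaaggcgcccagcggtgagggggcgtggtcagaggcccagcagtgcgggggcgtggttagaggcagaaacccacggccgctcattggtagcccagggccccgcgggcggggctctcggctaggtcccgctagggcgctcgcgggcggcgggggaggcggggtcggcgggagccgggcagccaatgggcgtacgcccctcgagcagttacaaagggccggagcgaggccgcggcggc
Tgfbr2, chr9:116175364-116175613, minus strand: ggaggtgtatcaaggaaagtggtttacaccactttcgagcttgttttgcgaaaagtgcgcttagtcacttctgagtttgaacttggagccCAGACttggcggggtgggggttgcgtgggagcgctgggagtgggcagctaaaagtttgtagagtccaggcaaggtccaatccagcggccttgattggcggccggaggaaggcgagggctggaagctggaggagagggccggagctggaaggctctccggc
The Tgfbr2 window holds CAGAC once, beginning 160 bases before the start, and the Tgfbr1 window shown, before the start that the deposited table also gives, holds none of these letters. A further RefSeq start of Tgfbr1 lies 32994 bases downstream, and its window (chr4:47385966-47386215), not printed, has 1 match to CAGAC or GTCTG, 203 bases before that start. Both receptor genes thus have a window with these letters, and the windows of Tgfb1, Smad3 and Ski have none. CAGAC or GTCTG occurs in 42.2% and GTAAACA or TGTTTAC in 3.17% of all 32851 windows of this length, so a single match is common for the first and these are descriptions of letters only. The Smad palindrome GTCTAGAC, found in 0.167% of all windows, and the forkhead letters were in none of the members' windows. GC content was 74.8% in the printed Tgfbr1 window and 58.4% in the Tgfbr2 window, against a median of 52.4% over all windows.

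Within each library the levels of the members can be set against each other, and the library scaling then cancels. These ratios were chosen after the values were seen and are given without a test. The ratio of Tgfbr2 to Tgfbr1 per length was 1.62, 1.80 and 1.36 in WT 2, 6 and 20, while in Exon2KO 2, 6 and 20 it was 2.97, 3.36 and 2.73. The Exon2KO libraries thus all had more type II than type I receptor transcript by a wider margin than any WT library, 1.90-fold on the geometric mean. The ratio of Tgfbr3 to Tgfbr1 was 0.119 ± 0.0367 in WT and 0.369 ± 0.0845 in Exon2KO (SD, n = 3 each), and the groups did not overlap. The ratio of Lrrc32 to Tgfb1 was 1.47, 1.10 and 1.25 in WT 2, 6 and 20 against 1.08, 0.796 and 1.13 in Exon2KO 2, 6 and 20, so the groups overlapped, although the ratio was lower in Exon2KO within every number.

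**Figure D2:**
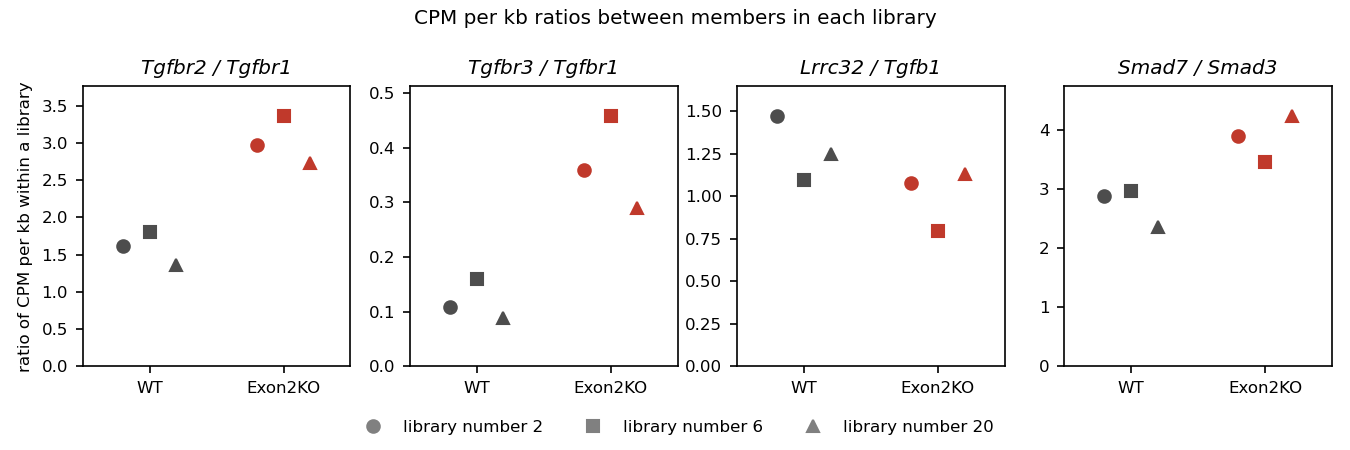
Ratio of the CPM per kilobase of the first-named to the second-named gene within each library, for 3 WT (grey) and 3 Exon2KO (red) libraries; the shape gives the column number and each vertical axis starts at 0. Tgfbr2 to Tgfbr1 lies between 1.36 and 1.80 in WT and between 2.73 and 3.36 in Exon2KO, while Lrrc32 to Tgfb1 overlaps.

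None of the Smad genes that carry the signal was called by edgeR, without or with the block, by DESeq2, or at an unadjusted p under 0.05. Smad2 (ENSMUSG00000024563, chromosome 18, 76241580 to 76310963, plus strand) had 55.8, 56.2 and 59.2 CPM in WT 2, 6 and 20 and 62.7, 60.7 and 64.1 CPM in Exon2KO 2, 6 and 20. Its groups did not overlap, yet the log2 fold change was only 0.13 (SE 0.07, edgeR adjusted p = 0.578). Smad4, the common partner (ENSMUSG00000024515, chromosome 18, 73639009 to 73703780, minus strand), had 109, 104 and 104 CPM in WT 2, 6 and 20 and 120, 112 and 118 CPM in Exon2KO 2, 6 and 20. These too were separate, and the log2 fold change was 0.14 (SE 0.07, edgeR adjusted p = 0.504). The processed pseudogene AC132418.2 overlaps Smad4, with 27 counts against 12591. Smad2 and Smad4 were not called with the block either (edgeR adjusted p = 0.28 and 0.181).

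Smad3 (ENSMUSG00000032402, chromosome 9, 63646767 to 63757994, minus strand) was the member closest to no change. It had 83.9, 86.5 and 110 CPM in WT 2, 6 and 20, and 86.9, 90.4 and 90.1 CPM in Exon2KO 2, 6 and 20. The WT library numbered 20 was above all others, and the Exon2KO libraries lay between the WT values. The log2 fold change was -0.066 (SE 0.10, edgeR adjusted p = 0.901), and without WT 20 it was 0.065 (edgeR adjusted p = 0.892), so its sign rests on that library. The difference was -0.28 within number 20, but 0.050 and 0.065 within numbers 2 and 6.

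Of the inhibitors, Smad7 rose and Ski was called higher with the block only. Smad7 (ENSMUSG00000025880, chromosome 18, 75367529 to 75395935, plus strand), which lies with Smad4 and Smad2 in 2.67 Mb of chromosome 18, had 198, 210 and 212 CPM in WT 2, 6 and 20. In Exon2KO 2, 6 and 20 it had 277, 256 and 312 CPM, all above WT. It rose by 0.45 in log2 terms (SE 0.09, edgeR adjusted p = 0.0324), or 1.36-fold. The differences within numbers 2, 6 and 20 were 0.49, 0.29 and 0.56. The call was lost in 5 of the 6 fits that left out 1 library. The log2 fold change was then 0.42 without WT 2 (edgeR adjusted p = 0.14), 0.46 without WT 6 (0.0888) and 0.47 without WT 20 (0.0623). It was 0.45 without Exon2KO 2 (edgeR adjusted p = 0.132) and 0.36 without Exon2KO 20 (0.0802). Without both libraries numbered 20 it was 0.39, also short of the threshold. The ratio of Smad7 to Smad3 per length was 2.74 ± 0.327 in WT and 3.87 ± 0.391 in Exon2KO (SD, n = 3 each).

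Ski (ENSMUSG00000029050, chromosome 4, 155154075 to 155222592, minus strand), the nuclear repressor of Smad targets, had 363, 342 and 325 CPM in WT 2, 6 and 20. It had 431, 401 and 397 CPM in Exon2KO 2, 6 and 20, with no overlap. The log2 fold change was 0.26 (SE 0.08, edgeR adjusted p = 0.165), and with the block 0.26 (SE 0.06, edgeR adjusted p = 0.0128). The differences within the numbers were alike, at 0.25, 0.23 and 0.29.

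**Figure D3:**
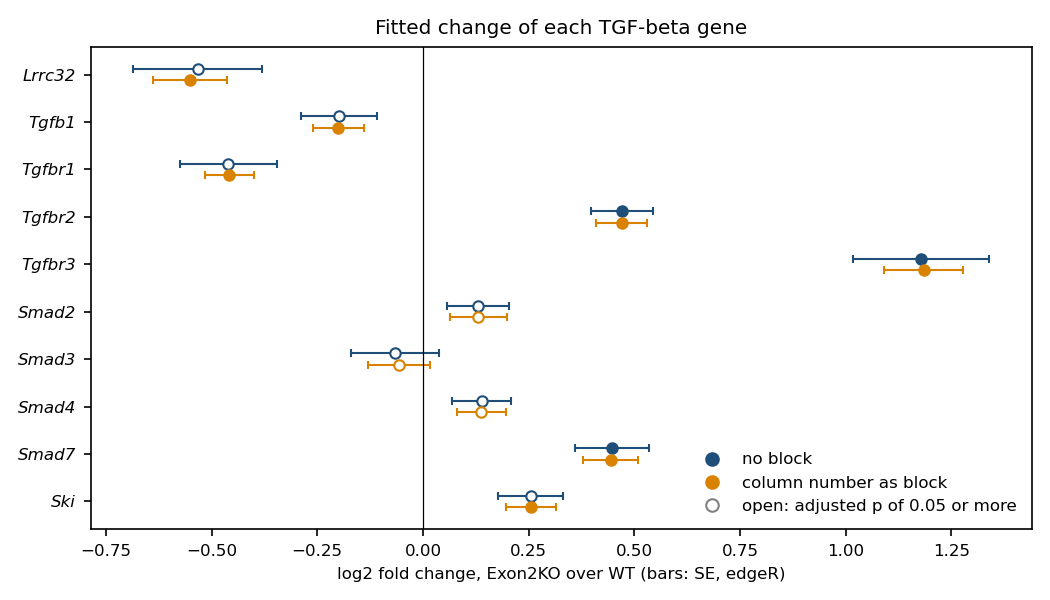
Log2 fold change of Exon2KO over WT for each gene (horizontal axis, edgeR, bars SE) without the block (blue) and with the column number as a block (orange); filled points have an adjusted p under 0.05. The sizes are close in both fits, and the block narrows the error, for example from 0.15 to 0.09 for Lrrc32.

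**Figure D4:**
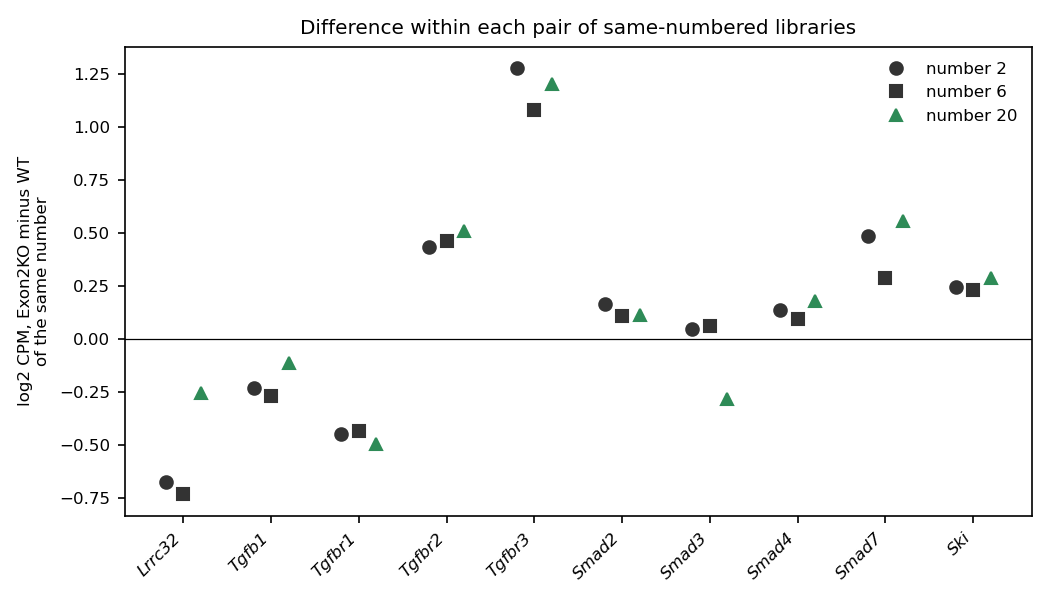
Difference in log2 CPM between the Exon2KO and the WT library of the same column number (vertical axis) for each gene; number 20 is green. Each gene but Smad3 has 1 sign in all 3 pairs, and Lrrc32 and Smad3 differ most between number 20 and the others.

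The authors' deposited table, which has its own test, lists 5 of the members at an adjusted p under 0.05. In the authors' deposited table Tgfbr2, Tgfbr3 and Smad7 are higher, with log2 fold changes of 0.47, 1.18 and 0.45. The authors' deposited table has Lrrc32 and Tgfbr1 lower, at -0.53 and -0.46, with adjusted p-values of 0.00785 and 0.011. For Ski and Tgfb1 the authors' deposited table gives adjusted p-values of 0.0989 and 0.523.

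Levels between genes were compared per length, as mean CPM per kilobase of gene length. In WT the highest was Lrrc32 at 68.0 ± 5.79, followed by Ski (61.7 ± 3.37), Tgfb1 (53.7 ± 3.47), Smad7 (45.7 ± 1.63) and Tgfbr2 (34.9 ± 1.13), all SD with n = 3. Below them came Smad4 (28.5 ± 0.795), Tgfbr1 (22.2 ± 3.03), Smad3 (16.8 ± 2.55), Smad2 (6.50 ± 0.207) and Tgfbr3 (2.59 ± 0.533). Of neighbours in this order, only Lrrc32 and Ski overlapped between libraries. In Exon2KO the order opened with Ski (73.7 ± 3.25), Smad7 (62.3 ± 6.30), Tgfbr2 (48.4 ± 2.37), Lrrc32 (47.0 ± 10.4) and Tgfb1 (46.8 ± 4.33), SD with n = 3. The last 3 of these overlapped with each other, and Lrrc32, at 37.2 to 57.9, also overlapped Smad7, at 56.5 to 69.0. By its mean Lrrc32 ranked 1 in WT and 4 in Exon2KO, but these overlaps leave its place in Exon2KO unsettled between ranks 2 and 5. Then came Smad4 (31.4 ± 1.21), Tgfbr1 (16.1 ± 1.81), Smad3 (16.1 ± 0.358), Smad2 (7.12 ± 0.198) and Tgfbr3 (5.86 ± 0.808), where Tgfbr1 and Smad3 overlapped.

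The wider pathway was read from 5 lists of 114 further genes, of which 83 were tested. In all, 14 were called, 5 higher and 9 lower in Exon2KO, and 27 with the block, 13 higher and 14 lower. Over all tested genes 2.33% were called, 0.757% higher and 1.58% lower. With the block 9.72% were called, 3.93% higher and 5.79% lower. The counts of each list below stand beside these shares, and the lists were chosen with earlier results known. Mstn and Tdgf1, which passed the filter on low counts only through 1 genotype, are among the 14, and 12 were called when at least 10 counts in every library were required. When single libraries were left out, between 3 (without Exon2KO 2) and 12 (without Exon2KO 20) of these 14 kept their call. Calls over all tested genes fell too, from 348 to 86 without Exon2KO 2 and to 314 without Exon2KO 20. Itgae, Itgb8 and Klrg1 kept their call in all 6 fits that left out 1 library. The median log2 fold change was 0.072 over the 83 genes, against 0.0084 over all tested genes.

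Genes that make, hold or release the ligand were mixed, with 1 of 14 tested genes called higher and 2 lower, and a median log2 fold change of -0.20. Itgb8, the integrin chain that frees TGF-beta on Tregs, fell to 29.9 ± 3.16 CPM in Exon2KO against 59.4 ± 4.44 CPM in WT (SD, n = 3 each), with a log2 change of -0.99 and an SE of 0.10 (edgeR adjusted p = 0.00235). Itgav, its partner chain, was not called (log2 fold change -0.23, edgeR adjusted p = 0.507). Nrp1, a surface receptor that can bind latent TGF-beta, fell by 0.69 (SE 0.10, edgeR adjusted p = 0.0108), a call lost without WT 2 or without Exon2KO 2, where the edgeR adjusted p reached 0.0769. Itgb3, another integrin chain that pairs with Itgav, rose by 0.62 (SE 0.09, edgeR adjusted p = 0.0072), from 48.5 ± 4.22 to 74.5 ± 2.17 CPM (SD, n = 3 each). Its call was lost without Exon2KO 2 (edgeR adjusted p = 0.0585). With the block Furin, the protease that cleaves the TGF-beta precursor, was called higher too (0.21, edgeR adjusted p = 0.0321). Ltbp4, a latent TGF-beta binding protein, and the protease gene Mmp9 were called lower (-1.39 and -0.88, edgeR adjusted p = 0.0283 and 0.033), both at under 10 CPM. The abundant Itgb1 and the chaperone gene Hsp90b1, which GARP needs to fold, were not called (-0.52 and -0.10, edgeR adjusted p = 0.51 and 0.899).

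In the list of other receptors and ligands of the superfamily, 1 of 14 tested genes was called higher and 2 lower, and the median was 0.19. The counts of Bmp7, which encodes a bone morphogenetic protein, were 572 in WT 2, 669 in WT 6 and 1139 in WT 20, and the Exon2KO libraries 2, 6 and 20 held 239, 354 and 307. It fell by 1.31 in log2 terms (SE 0.22, edgeR adjusted p = 0.0224). The call was lost without WT 6, Exon2KO 2, Exon2KO 6 or Exon2KO 20, at edgeR adjusted p-values up to 0.0964. Mstn, the myostatin gene, was at 0, 3 and 0 counts in the WT libraries, while the Exon2KO libraries held 28, 44 and 14. Tdgf1, a co-receptor gene, was at 27, 31 and 44 counts in the WT libraries, while the Exon2KO libraries held 9, 12 and 8. These are the 1 gene called higher and the other gene called lower, but each passed the filter on low counts only through the genotype where it is high, so their calls are not taken as support. With the block, the activin type I receptor gene Acvr1b was called higher (0.28, edgeR adjusted p = 0.0239) and the BMP type II receptor gene Bmpr2 lower (-0.39, edgeR adjusted p = 0.0114).

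Among 31 tested genes of other Smads and Smad regulators, Smurf2 was called higher and none lower, a share near the 2.33% of all tested genes, and the median was 0.081. Tgif1 was the 1 lower gene with an unadjusted p under 0.05, and DESeq2 called none lower. Smurf2 is a ubiquitin ligase that Smad7 brings to the receptor; it rose to 139 ± 13.0 CPM in Exon2KO against 90.7 ± 5.60 CPM in WT (SD, n = 3 each), with a log2 change of 0.62 and an SE of 0.09 (edgeR adjusted p = 0.00887). Its call was lost without Exon2KO 2 (edgeR adjusted p = 0.0624). With the block 5 genes were called higher: Smurf2, the related ligase genes Smurf1 and Nedd4l (0.25 and 0.33, edgeR adjusted p = 0.0157 and 0.0356), Sptbn1 and Traf6 (0.26 and 0.25, edgeR adjusted p = 0.0136 and 0.0133). With the block Tgif1, a repressor that binds Smad complexes, was called lower (-0.39, edgeR adjusted p = 0.00267). The co-activator gene Ep300 and Skil, the relative of Ski, were not called (0.082 and 0.072, edgeR adjusted p = 0.883 and 0.861).

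Genes known to rise with TGF-beta in T cells, Smad7 left out, had 3 of 13 tested members called lower and none higher. Over all tested genes the shares were 1.58% and 0.757%. The median of the list was -0.16. At an unadjusted p under 0.05 there was 1 higher gene, and DESeq2 called 1 higher. The 3 genes called lower were Itgae, which encodes the CD103 integrin chain, and Ctla4 and Cd101, surface inhibitors of T cells. Their log2 fold changes were -2.14, -0.85 and -0.66 (SE 0.11, 0.12 and 0.09, edgeR adjusted p = 5.32e-05, 0.00677 and 0.00851). The calls of Ctla4 and Cd101 were lost without Exon2KO 2 (edgeR adjusted p = 0.0566 and 0.061). With the block Rgs16, a regulator of G protein signalling, was called lower (-0.44, edgeR adjusted p = 0.00203). Pmepa1 and Ldlrad4, feedback inhibitor genes that Smads induce, were not called, with -0.16 and -0.22 (edgeR adjusted p = 0.769 and 0.607), while the feedback gene Smad7 rose as given above. Foxp3, itself on this list, was not called (0.19, edgeR adjusted p = 0.693).

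Genes known to fall with TGF-beta in T cells had 2 of 14 tested members called higher and 2 lower, with a median of 0.19. Klf2, a factor of resting and circulating T cells, and its target S1pr1, the receptor for exit from lymphoid tissue, rose by 0.54 and 0.61 in log2 terms (SE 0.09 and 0.10, edgeR adjusted p = 0.0175 and 0.0159). Their calls were both lost without WT 2 or Exon2KO 2, and also without Exon2KO 6 for Klf2 and without WT 6 for S1pr1 (edgeR adjusted p up to 0.0961 and 0.0913). Klrg1 and Gata3 fell, by 3.43 and 0.48 (SE 0.26 and 0.10, edgeR adjusted p = 0.00085 and 0.0437). The call of Gata3 remained only without Exon2KO 20 among the fits that left out 1 library, and its edgeR adjusted p reached 0.199. With the block Id2 was also called higher (0.44, edgeR adjusted p = 0.0312), and Myc was not called (0.070, edgeR adjusted p = 0.863 without and 0.627 with the block).

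**Figure D5:**
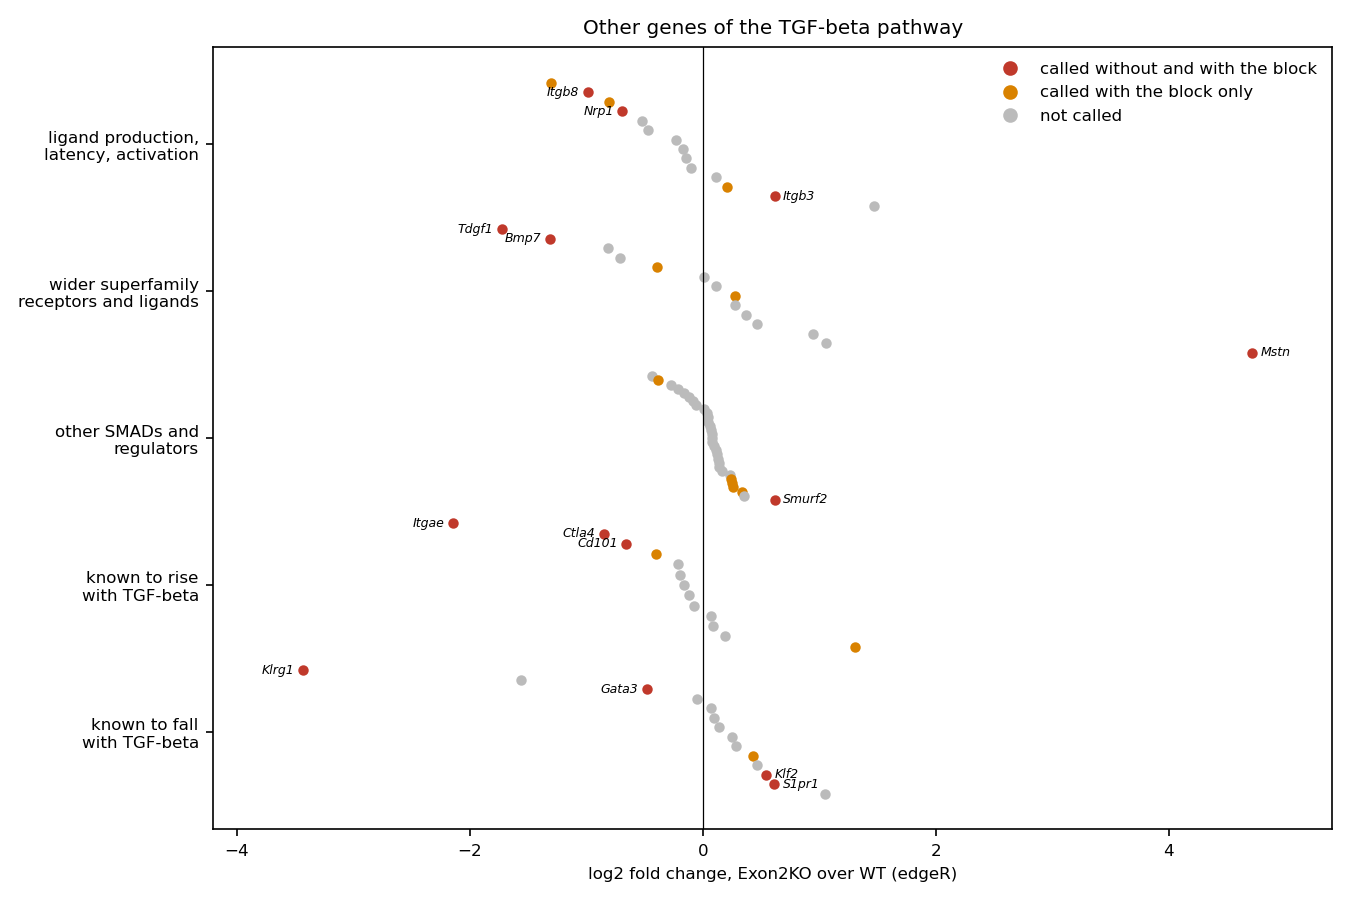
Log2 fold change of Exon2KO over WT (horizontal axis, edgeR) of the tested genes of 5 lists; red points were called without and with the block and are named, orange points only with it, grey points in neither fit. Itgae at -2.14 and Klrg1 at -3.43 lie farthest to the left, and Mstn, whose fitted value rests on 3 counts in WT, farthest to the right.

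Genes whose log2 CPM followed a member most closely over the 6 libraries were sought among 8420 protein-coding genes with at least 10 CPM. For Lrrc32 these included Abitram, Phtf2, Thop1 and Ppp1r16a, with Pearson r from 0.978 to 0.997. For Tgfbr3, the member with the smallest unadjusted p, they were Parp11, Lmo4, Cnn3, Znhit2 and Zfp386, with r from 0.991 to 0.997. Of the latter Lmo4 and Cnn3 were called higher, by 0.85 and 1.27 in log2 terms (SE 0.14 and 0.20, edgeR adjusted p = 0.013 and 0.0121). With 6 libraries that share genotype and column number, 26 genes had an r over 0.95 with Lrrc32 and 60 with Tgfbr3, so these values describe a pattern only.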

How the data were processed

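Counts per gene are whole numbers as deposited by the authors, not normalized. The authors also deposited FPKM, not used here: levels between genes are CPM per kilobase of the table's gene length, which replaced a planned order by FPKM. The authors' deposited table further holds group means as a scaled signal, not used, and a log2 fold change and a p-value with its adjusted value, quoted only where named. Per the submitters' processing notes the tools were HISAT2 2.0.5, StringTie 1.3.3b, featureCounts 1.5.0-p3 and DESeq2 1.16.1 and the build was mm10; strand setting and annotation release are not given in the sources used here. All 10 members had the positions of GENCODE M21 (GRCm38, the same build).

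Counts were tested with edgeR 4.0.16 in R 4.3.3: filterByExpr, TMM, robust quasi-likelihood fit, 6 libraries, no covariate, two-sided, Benjamini-Hochberg over 14919 genes. The SE is the absolute log2 fold change over the square root of F. CPM uses TMM-scaled library sizes; 3 counts, the smallest level taken as shown, equal 0.141 to 0.169 CPM and cover counting error only. P-values measure the spread between these libraries, which may be partly technical.

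Column numbers (2, 6, 20) are not the titles' replicate numbers, so columns were mapped to genotypes only. Same-numbered libraries deviated together across 14919 genes (correlations 0.271, 0.369 and 0.494, each above the 0.1 set for pairing), so the block value stands beside a result where it changes the call; what the numbers stand for is not given. Same-genotype libraries differed by more than sampling noise (chi-square per degree of freedom 8.12 to 23.6).

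Members, gene lists, motifs and tests were chosen with earlier results of these data known. The named genes are all 10 members and, per list, genes called in either fit and the 3 with the highest mean count, with Itgav, Pmepa1 and Ldlrad4 added after their values were seen; a few genes that the rule picks are not reported here. Alternatives were other filters, scalings (RLE, upper quartile), DESeq2 1.42.0, limma-voom (limma 3.58.1), no robust estimation, the block, and leaving out libraries. Scripts were tested on simulated data.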

Additional observations from a re-analysis of the deposited data

How the results depend on the processing

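Leaving out both libraries numbered 20 was added after seeing the data; the other alternatives were listed earlier and were run, except the planned order of the members by FPKM, which was not run. The titles' replicate numbers could not be used as a block because the columns carry other numbers, so the block is on the column number. Of 10 members 3 were called, 5 with DESeq2, 7 with the replicate block and 1 to 4 when 1 library was left out. The calls over all genes also moved between these fits. Of 14919 tested genes 348 were called, 667 with DESeq2 and 1450 with the replicate block. When 1 library was left out, 86 to 314 of 15317 to 15494 tested genes were called. Of the other pathway genes 14 were called, 27 with the replicate block and 3 to 14 when 1 library was left out. Without a count filter Tgfbr1 passed the threshold (log2 fold change -0.47). With DESeq2 Lrrc32 (-0.53) and Tgfbr1 (-0.46) passed. With the replicate block Lrrc32 (-0.55), Tgfb1 (-0.20), Tgfbr1 (-0.46) and Ski (0.26) passed, and the block changed no other member's call. Without both libraries numbered 20, Lrrc32 (-0.70) and Tgfbr1 (-0.44) passed, Smad7 (0.39) did not, and Smad3 changed sign (0.057, not called). Leaving out 1 library at a time gave log2 fold changes of -0.71 to -0.40 for Lrrc32, -0.56 to -0.34 for Tgfbr1, 0.44 to 0.51 for Tgfbr2, -0.14 to 0.065 for Smad3 and 0.36 to 0.50 for Smad7. The members' median log2 fold change of 0.13 stayed positive in all 15 alternatives. The cause of these changes was not tested. The biological coefficient of variation was 17.3% without and 8.56% with the block; each member had at least 278 counts in every library.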
